A study of Mus musculus with 9 samples.

Results

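The genes of the splicing machinery and the hnRNP family were examined in granulocyte-macrophage progenitors (GMPs) that were wild type, heterozygous or null for Dicer1. The genes are those whose symbol in the platform annotation begins with Srsf, Snrp, Sf3a, Sf3b, Hnrnp or U2af, taken from probe sets that carry 1 symbol. A probe set is a group of short oligonucleotides on the array that reads a stretch of a transcript, and a gene can have several. The prefixes found 50 of the 18193 named genes, read by 142 probe sets, and the probe set with the highest mean log2(signal + 12) over the 9 arrays stood for its gene. Signal is the brightness that the MAS5 software gives a probe set, and 12 was added so that dim values do not dominate the log scale. Testing was limited to genes at or above a mean signal of 8.49, the 40th percentile over probe sets, and 48 of the 50 genes were. Snrpn and Srsf12 lay below it, with signals of 1.07 to 3.57 and 0.313 to 2.72 over the 9 arrays. Hnrnpa1l2-ps2, Hnrnpa3, Snrpa, Snrpd1 and Snrpd2 stand only on probe sets that carry several symbols, and were left out.

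RNA came from sorted EYFP-positive GMPs of bone marrow, with 3 arrays for each genotype. All donors carried Cebpa-Cre, which makes Cre recombinase in cells that switch on Cebpa, and R26-LSL-Eyfp, a reporter that Cre turns on. Donor fetal livers of embryonic day 13.5 were transplanted into C57BL/6 recipients aged 6 to 8 weeks and irradiated with 8.5 Gy, and tissues were taken 6 to 10 weeks later. The wild-type group is labelled as the Dicer control, the heterozygous group as Dicer -/wt and the null group as Dicer fl/fl in the design text, and the Cre acts only where Cebpa has been expressed. Cells of a fetal liver usually went into more than 1 recipient, and the labels do not say which arrays share a donor. What the p-values measure is thus only the spread among these arrays, which can be technical in part.

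Dicer1, whose product makes mature microRNAs out of their precursors, is the gene targeted. Its signal was 244, 228 and 223 on wild-type replicates 1 to 3, 169, 201 and 187 on heterozygous and 115, 101 and 97.2 on null arrays, so the groups did not overlap. Its difference was -1.07 (SE 0.11, adjusted p = 1.88e-05) for null against wild type, -0.76 (adjusted p = 0.000429) for null against heterozygous and -0.31 (adjusted p = 0.217) for heterozygous against wild type, the last of which did not pass. These values depend on the probe set: with the most variable one null against heterozygous was -0.41 and missed the threshold (adjusted p = 0.0667), and heterozygous against wild type was -0.72 and passed (0.0131), as did the mean over the probe sets at -0.51 (0.015).

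The arrays also differed in other ways. GMP markers were present at a summed signal of 23212 to 27525 over all arrays, and 0 of the 10 listed were called in any comparison by limma, the linear model used throughout. Wild-type replicate 2 stood apart, with an Xist signal of 2610 against 16.4 to 30.2 on the other arrays. Its Eif2s3y signal was 1.13 against 622 to 859. The labels describe every sample as female, which by these genes matches wild-type replicate 2 alone. By the same genes the other wild-type arrays and all heterozygous and null arrays read as male. Immediate early genes, listed as a possible sign of handling, summed to 4692 to 6361 on wild-type, 927 to 1622 on heterozygous and 764 to 1248 on null arrays. Relative to wild type 6 of 11 tested fell in null cells and 6 fell in heterozygous cells, with 1 lower in null against heterozygous. Whether handling differed between the groups was not tested. B lymphoid markers summed to 1195 to 1449, 1088 to 1199 and 556 to 664 in the same order, with 1 of 4 tested lower in null against wild type and against heterozygous. T and NK markers summed to 1197 to 1305, 1023 to 1118 and 863 to 1095, with 2 of 4 tested lower in null against wild type. Monocyte markers summed to 2410 to 3723, 3687 to 4224 and 4141 to 4202, with 1 of 5 tested higher and 1 lower in null against wild type and 1 lower against heterozygous. Markers of later neutrophils summed to 4041 to 7512, 2801 to 5076 and 2463 to 8860, with 2 of 9 tested lower in null cells and 3 lower in heterozygous cells relative to wild type, and 1 higher in null against heterozygous. Erythroid markers summed to 125 to 779, 247 to 369 and 120 to 262, with the 779 on wild-type replicate 2, and 0 of 4 tested were called. The ratio of the 3′ to the 5′ control probe set of Gapdh, which rises as RNA is degraded, was 6.56 to 7.44 on wild-type, 6.00 to 6.33 on heterozygous and 7.11 to 7.72 on null arrays. The same ratio for Actb overlapped between the groups, at 7.20 to 10.1, 7.48 to 8.45 and 7.28 to 8.25. An 18S ribosomal RNA control read 914 to 1776, 2939 to 3031 and 1351 to 2502. The part of these differences in the results below was not tested.

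Splicing removes introns from precursor RNA. Small nuclear ribonucleoproteins (snRNPs), each built around a small RNA that in most of them wears a ring of Sm proteins, recognise the splice sites. The U2 snRNP holds the branch point with the SF3A and SF3B complexes, after the U2AF dimer has bound the end of the intron. SR proteins (Srsf genes) mostly help exons to be recognised, and hnRNPs coat the RNA and often oppose them. Many SR protein and hnRNP genes make alternative transcripts with exons that lead to their own decay.

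In null against wild-type GMPs the small subunits of the SF3B complex and some Sm proteins were lower, while most SR protein and hnRNP genes did not pass the test. Of the 48 tested genes 9 were called at an adjusted p under 0.05, 2 higher and 7 lower. The call is made by limma after Benjamini-Hochberg adjustment over all 12347 genes tested. That is 18.8% of the members, against 15.7% of all genes tested (7.60% higher and 8.09% lower). Their median difference was -0.01 on the log2 scale, and that of all genes -0.04. The 3 null and 3 wild-type values did not overlap for 14 members (29.2%), 3 upward and 11 downward, against 33.0% of all genes. These genes are bright, and among the 6321 genes at least as bright as the dimmest tested member (a signal of 85.5) 24.3% were called, 11.9% as lower. The share of members called either way was thus near or below the background. Called lower were 14.6% of the members, against 8.09% of all genes and 11.9% of the bright ones. With 7 genes behind that share it lies close to that of the bright genes, and no test of the set was run. Without wild-type replicate 2, which stands apart, 7 members were called, 1 higher and 6 lower. Over all genes tested 754 were then called higher and 691 lower, against 938 and 999 with all arrays. In such bulk samples fewer cells that carry a transcript and less of it per cell cannot be told apart.

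**Figure D1:**
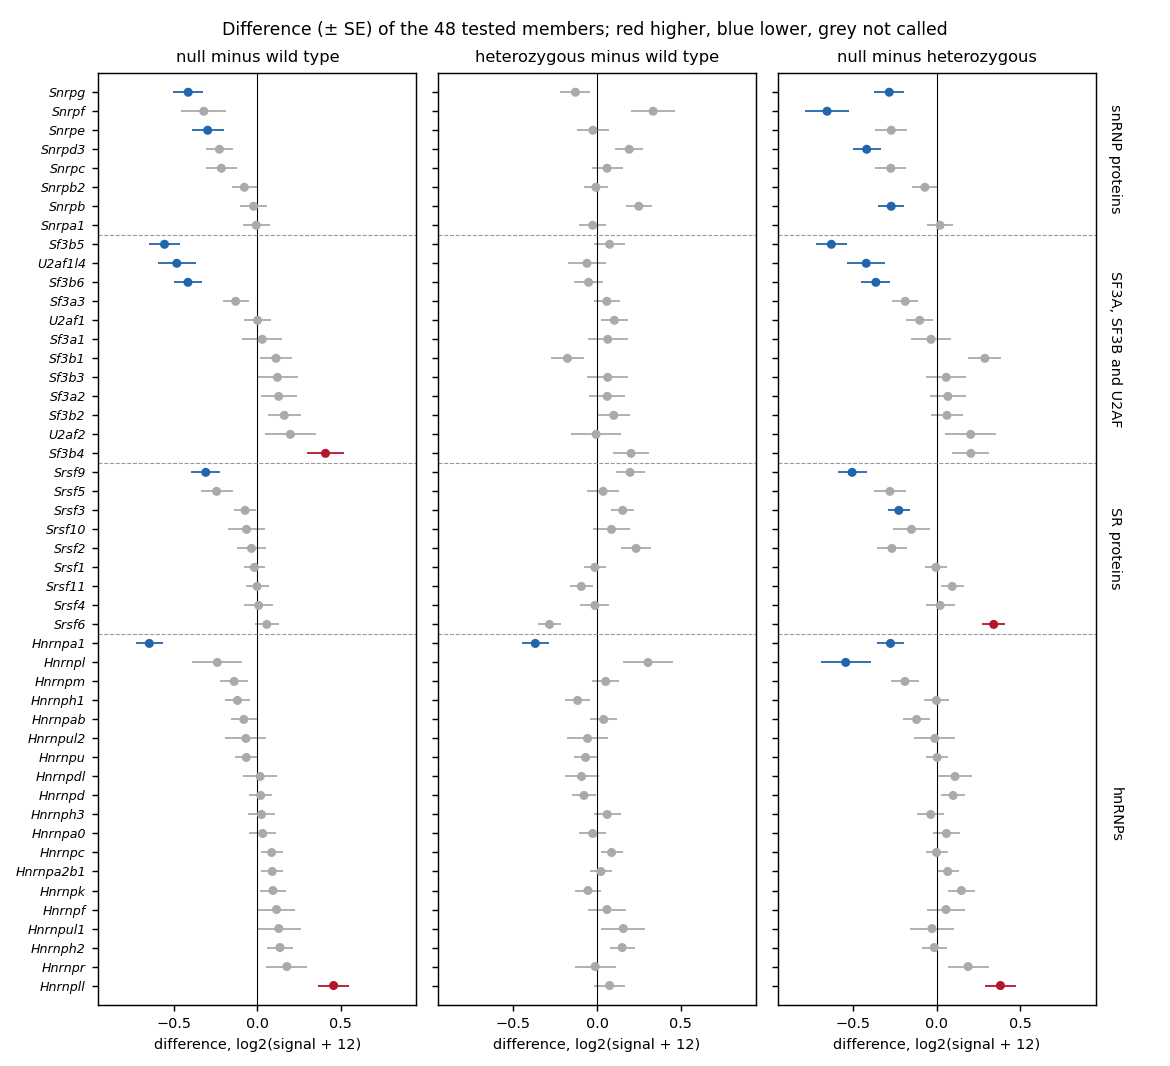
Differences between genotypes for the 48 tested splicing factor and hnRNP genes, on the log2(signal + 12) scale, with points for the limma estimate and bars for its SE; red and blue mark genes called higher and lower, and dashed lines separate the roles. All 8 snRNP protein genes lie below 0 in null minus wild type, while the hnRNPs centre near 0 with Hnrnpa1 and Hnrnpll at the ends.

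Among the SF3A, SF3B and U2AF genes 4 of 12 were called, 3 lower and 1 higher, with a median of 0.07. Sf3b5, a small subunit of SF3B, had signals of 419, 454 and 417 in wild type, 509, 444 and 412 in heterozygous and 289, 293 and 284 in null cells. The null values were the lowest of the 9 and close to each other, and the difference to wild type was -0.56 (SE 0.09, adjusted p = 0.00118). Sf3b6, the subunit that lies at the branch point adenosine, read 2082, 2152 and 2041 in wild type, 2248, 2029 and 1804 in heterozygous and 1522, 1710.0 and 1475 in null cells. It fell by 0.41 (SE 0.09, adjusted p = 0.00523), and no null value reached the lowest of the other groups. U2af1l4 is a relative of the small U2AF subunit. Its signals were 140.2, 154 and 146 in wild type, 147, 137 and 137 in heterozygous and 88.4, 116 and 102 in null cells, and null differed from wild type by -0.48 (SE 0.11, adjusted p = 0.0107). Other probe sets of this gene also carry the symbol Igflr1 and were not used.

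Sf3b4, a subunit of SF3B that binds RNA upstream of the branch point, went the other way. It read 362, 292 and 314 in wild type, 347, 401 and 371 in heterozygous and 414, 496 and 388 in null cells, and rose by 0.41 (SE 0.11, adjusted p = 0.0224). For Sf3b4 the adjusted p over 22 alternative settings ran from 0.0168 to 0.995. It missed the threshold without wild-type replicate 2 or 3 (0.0811 and 0.0673) or null replicate 2 (0.0897). It also missed with a variance prior without an intensity trend (0.0683) or the mean over the gene's probe sets (0.398). With the most variable probe set the difference was -0.0028 (adjusted p = 0.995). The other SF3A and SF3B subunits and both main U2AF genes did not pass, with differences from -0.13 for Sf3a3 to 0.20 for U2af2. Sf3b1, the large SF3B subunit that is often mutated in myeloid disease, gave 0.11 (adjusted p = 0.507). Subunits of the same complex thus had differences of either sign.

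All 8 tested snRNP protein genes had differences below 0, with a median of -0.22, but only 2 of them passed. Snrpg, an Sm protein, read 3786, 3745 and 3739 on wild-type arrays, 3979, 3304 and 3079 on heterozygous and 2822, 3044 and 2605 on null arrays. It differed by -0.41 (SE 0.09, adjusted p = 0.00637) between null and wild type, whose values did not overlap. For Snrpg against wild type the adjusted p over the alternatives ran from 0.00123 to 0.0501 and missed the threshold with a variance prior without an intensity trend (0.0501). Snrpe, its neighbour in the Sm ring, read 4757, 4582 and 4797 in wild type, 5499, 4359 and 4142 in heterozygous and 3668, 4189 and 3665 in null cells, a difference of -0.30 (SE 0.09, adjusted p = 0.0475). For Snrpe the adjusted p over the alternatives ran from 0.0115 to 0.15 and missed the threshold without wild-type replicate 1, 2 or 3 (0.106, 0.0722 and 0.119), heterozygous replicate 2 (0.0642) or null replicate 1 or 3 (0.134 and 0.145), and with 5 other settings (0.0513 to 0.15). Values did not overlap either for Snrpd3, Snrpf and Snrpc, at -0.23, -0.32 and -0.21, but none of these 3 passed (adjusted p = 0.0797, 0.126 and 0.141). Snrpb, Snrpb2 and Snrpa1 lay closest to 0, from -0.08 to -0.01.

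Of the 9 tested SR protein genes 1 was called, and the median was -0.03. Srsf9, a small SR protein, had signals of 765, 644 and 730.3 in wild type, 867, 756 and 833 in heterozygous and 558, 562 and 597 in null cells. The null values were the lowest, and the difference to wild type was -0.31 (SE 0.09, adjusted p = 0.0277). For Srsf9 the adjusted p over the alternatives ran from 0.0132 to 0.101 and missed the threshold without wild-type replicate 1 or 3 (0.101 and 0.0856) or null replicate 1 or 2 (0.0808 and 0.0693), and with a variance prior without an intensity trend (0.0832). Srsf5 read 1999.9, 2187 and 1881 in wild type, 2129, 2192 and 1902 in heterozygous and 1912, 1739.6 and 1485 in null cells, and its difference of -0.24 (SE 0.10, adjusted p = 0.103) did not pass. It did pass without null replicate 1 (0.0485) and with the replicate block (0.0362), with adjusted p of up to 0.376 elsewhere. Srsf1, the founding SR protein, read 5502, 5034 and 4857 in wild type and 4874, 5180.4 and 5136 in null cells and gave -0.02 (adjusted p = 0.897).

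The hnRNP genes had 2 of 19 called and a median of 0.02. Hnrnpa1, an abundant hnRNP that often silences exons, had the lowest adjusted p of the members in this comparison. It read 2427, 2521 and 2207 on wild-type, 2002, 1841 and 1693 on heterozygous and 1595, 1523 and 1439 on null arrays, so that by this probe set the 3 groups did not overlap and the heterozygous values lay between the others. By the other bright probe set heterozygous and null values overlapped, at 1669.9, 1496 and 1399 against 1399, 1656 and 1343. Null differed from wild type by -0.65 (SE 0.08, adjusted p = 0.000151), and the call was kept in all 22 alternatives, leaving out wild-type replicate 2 included, with an adjusted p of at most 0.0189. Other probe sets list Hnrnpa1 together with pseudogenes. Near-identical copies could also be read by the probe set used here, so the value is uncertain as that of this gene alone.

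Hnrnpll, known for regulating the splicing of Ptprc (CD45) in lymphocytes, had the largest rise among the members. Its signals were 1532, 1286 and 1256 in wild type, 1300.2, 1465 and 1521 in heterozygous and 1834, 1761 and 1994 in null cells. All 3 null values exceeded the 6 others, with a difference to wild type of 0.46 (SE 0.09, adjusted p = 0.0042) that passed in all 22 alternatives (adjusted p at most 0.0338). Hnrnph2 had the next lowest p of the hnRNPs and did not pass, at 0.14 (adjusted p = 0.262). The bright hnRNPs Hnrnpa2b1, Hnrnpf, Hnrnpab and Hnrnpk gave 0.09, 0.11, -0.08 and 0.09, with adjusted p of 0.419, 0.552, 0.559 and 0.485. Hnrnpa2b1, for example, read 6582, 5813 and 6136 on wild-type and 6273, 6789.7 and 6634 on null arrays, which overlap.

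**Figure D2:**
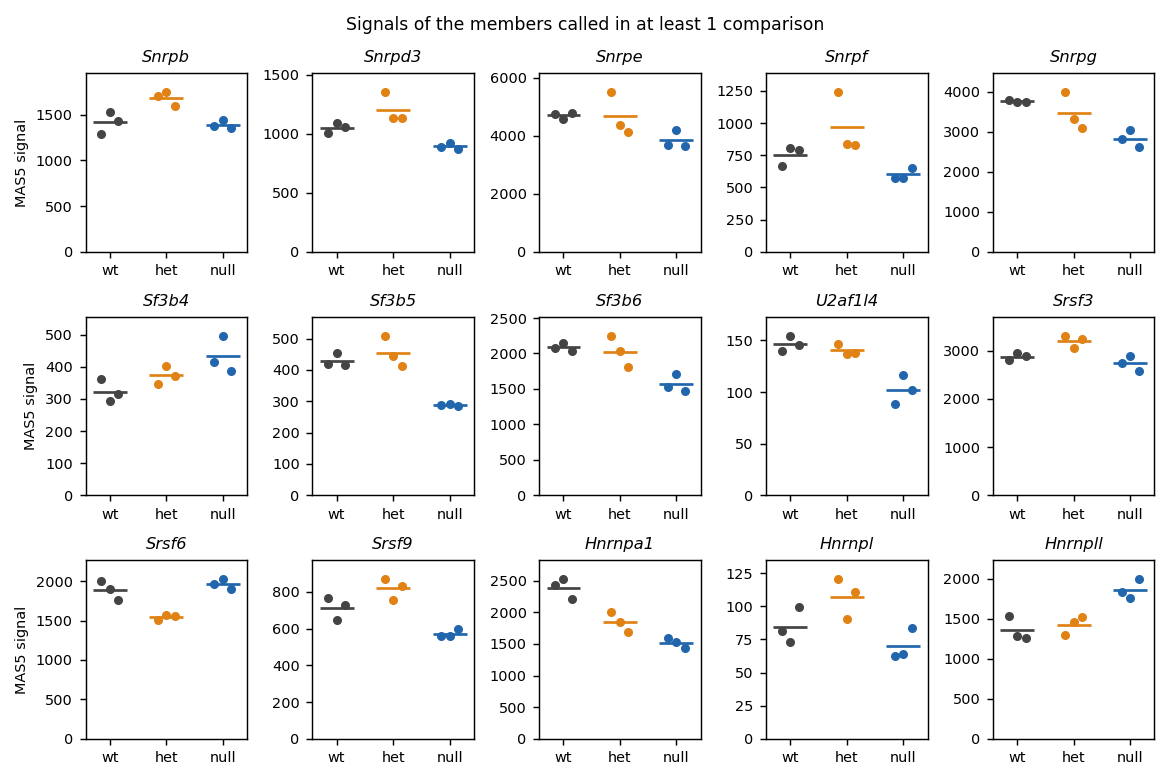
MAS5 signal on each array (points) and group mean (bars) for the 15 splicing factor and hnRNP genes called in at least 1 comparison, with wild type in grey, heterozygous in orange and null in blue; each axis starts at 0 and has its own scale. Null values lie below all others for Sf3b5, Sf3b6, U2af1l4, Srsf9, Hnrnpa1, Snrpd3, Snrpf and Snrpg and above all others for Hnrnpll, and heterozygous replicate 1 is the highest array for Sf3b5, Sf3b6, Srsf3, Srsf9, Hnrnpl, Snrpd3, Snrpe, Snrpf and Snrpg.

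In null against heterozygous cells 4 Sm protein genes and 2 SR protein genes fell, along with the small SF3B subunits. For Snrpf, Snrpd3, Snrpb, Srsf9 and Srsf3 among them the heterozygous mean signal lay above the wild-type mean. Of the 48 genes 13 were called, 2 higher and 11 lower, which is 27.1%, against 14.3% of all genes tested (6.84% higher and 7.49% lower). The lower calls were 22.9% of the members. The median was -0.02 here and -0.03 over all genes, and values did not overlap for 41.7% of the members against 32.7% of all genes. Among the 6321 genes at least as bright as the dimmest tested member 23.0% were called and 11.7% were lower. The count of 13 rested on some arrays: it was 5 without heterozygous replicate 1, 8 without heterozygous replicate 2 and 6 without null replicate 3. Calls over all 12347 genes tested fell too, from 845 higher and 925 lower. They became 525 and 508, 614 and 579, and 551 and 513 in the same order. This comparison shares the null arrays with null against wild type and the heterozygous arrays with the third comparison, so the values below are set side by side and are not separate evidence.

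By role, 4 of 8 snRNP protein genes were lower and 0 higher, with a median of -0.27. Snrpf, an Sm protein, read 670.4, 805 and 788 in wild type, 1239, 836 and 832 in heterozygous and 577, 572 and 655 in null cells. Heterozygous replicate 1 was far above the rest, yet the difference of -0.66 (SE 0.13, adjusted p = 0.00509) stayed called in all 22 alternatives, with an adjusted p of at most 0.0373. Against wild type, Snrpf had an adjusted p of 0.0304 when heterozygous replicate 1 was left out, and of 0.126 with it. Snrpd3, another Sm protein, read 1005, 1089 and 1056 in wild type, 1352, 1132 and 1132 in heterozygous and 887, 924 and 875 in null cells, with heterozygous above wild type and null below. It fell by 0.42 (SE 0.08, adjusted p = 0.00426), and the adjusted p over the alternatives ran from 0.00275 to 0.998 and missed the threshold with the mean over the gene's probe sets (0.998). With its most variable probe set in place of the main one the difference turned to 0.37 (adjusted p = 0.518). Against wild type Snrpd3 passed without heterozygous replicate 1 (0.042) and with quantile normalization (0.0378), within a range up to 0.468.

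Snrpb, the Sm protein that also has a decay-inducing exon, read 1288, 1537 and 1429 in wild type, 1711, 1747 and 1598 in heterozygous and 1373, 1445 and 1361 in null cells. Only the heterozygous group stood out, above both others, and null differed from it by -0.27 (SE 0.08, adjusted p = 0.0313). For Snrpb the adjusted p over the alternatives ran from 0.0198 to 0.187 and missed the threshold without heterozygous replicate 1 or 2 (0.0917 and 0.12) or null replicate 1 or 3 (0.0863 and 0.0989), and with 4 other settings (0.0508 to 0.187). Snrpg differed by -0.28 (SE 0.09, adjusted p = 0.0479) from heterozygous, and for Snrpg here the adjusted p ran from 0.0199 to 0.191 and missed the threshold without wild-type replicate 1 or 3 (0.0589 and 0.0615), heterozygous replicate 1 or 2 (0.191 and 0.0846) or null replicate 1 or 3 (0.101 and 0.173), and with 4 other settings (0.0507 to 0.152). Heterozygous replicate 1 was the highest of the 9 arrays for Snrpc, Snrpd3, Snrpe, Snrpf and Snrpg.

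Among the SF3A, SF3B and U2AF genes the same 3 that were lower against wild type were lower against heterozygous, and 0 were higher. Sf3b5 differed by -0.63 (SE 0.09, adjusted p = 0.000616) and kept its call in all 22 alternatives (adjusted p at most 0.0459). Sf3b6 differed by -0.36 (adjusted p = 0.0122), and its adjusted p over the alternatives ran from 0.00427 to 0.0664 and missed the threshold without heterozygous replicate 1 (0.06) or null replicate 3 (0.0547), and with a variance prior without an intensity trend (0.0664). U2af1l4 differed by -0.42 (adjusted p = 0.0234), and its adjusted p ran from 0.0147 to 0.0958 and missed the threshold without heterozygous replicate 1, 2 or 3 (0.0833, 0.0588 and 0.0505) or null replicate 1 or 3 (0.0958 and 0.0618). Sf3b4, with 0.20 (adjusted p = 0.252), and Sf3b1, with 0.29 (adjusted p = 0.0662), did not pass.

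Of the SR protein genes 2 were lower and 1 higher, with a median of -0.15. Srsf9 fell by 0.51 (SE 0.09, adjusted p = 0.00182) and was called in all 22 alternatives (adjusted p at most 0.0184). Srsf3, a small SR protein with a self-regulated decay exon, read 2817, 2946 and 2883 in wild type, 3311, 3066 and 3247 in heterozygous and 2747, 2902 and 2576 in null cells, highest in the heterozygous group, and differed by -0.23 (SE 0.07, adjusted p = 0.0368). For Srsf3 the adjusted p over the alternatives ran from 0.0189 to 0.954 and missed the threshold without heterozygous replicate 1, 2 or 3 (0.115, 0.0601 and 0.0954) or null replicate 1 or 3 (0.0831 and 0.15), and with 4 other settings (0.0737 to 0.954). Srsf6 had the opposite profile. Its signals were 1998, 1905 and 1756 in wild type, 1507, 1574 and 1555 in heterozygous and 1959, 2021 and 1901 in null cells, so that the heterozygous values were the lowest and wild type and null overlapped. Null exceeded heterozygous by 0.34 (SE 0.07, adjusted p = 0.00548), a rise called in all 22 alternatives (adjusted p at most 0.0484).

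Among the hnRNPs Hnrnpa1 and Hnrnpl were lower and Hnrnpll was higher, 3 of 19, with a median of 0.00. Hnrnpl, a relative of Hnrnpll that binds CA-rich RNA, read 81.5, 72.7 and 99.7 in wild type, 120.3, 90.6 and 111 in heterozygous and 62.4, 63.8 and 83.3 in null cells. It was the dimmest tested member and its replicates spread widely, and the difference was -0.54 (SE 0.15, adjusted p = 0.0256). For Hnrnpl the adjusted p over the alternatives ran from 0.0131 to 0.859 and missed the threshold without heterozygous replicate 1 or 3 (0.112 and 0.073) or null replicate 1 or 2 (0.0888 and 0.0756), and with 4 other settings (0.0547 to 0.859). Hnrnpa1 differed by -0.28 (adjusted p = 0.0345), and its adjusted p ran from 0.0146 to 0.175 and missed the threshold without heterozygous replicate 1 or 2 (0.139 and 0.0959) or null replicate 2 or 3 (0.0702 and 0.127), and with 4 other settings (0.0566 to 0.175). Its other bright probe set gave -0.06 (adjusted p = 0.798), adjusted over probe sets. Hnrnpll differed by 0.38 (adjusted p = 0.0128), and its adjusted p ran from 0.0077 to 0.0664 and missed the threshold without heterozygous replicate 1 (0.0639) or null replicate 3 (0.0594), and with a variance prior without an intensity trend (0.0664) or the mean over the gene's probe sets (0.0526).

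In heterozygous against wild-type cells 1 of the 48 genes passed the test, which is 2.08% of them against 1.39% of all genes tested. Called genes were 0.697% higher and 0.697% lower over all genes, and 2.18% of the bright genes were called. The median of the members was 0.05 and that of all genes -0.01, and values did not overlap for 16.7% of the members against 18.3% of all genes. Hnrnpa1 was the gene called, and it fell by 0.37 (SE 0.08, adjusted p = 0.0379) in the heterozygous group. Over all genes 86 were called higher and 86 lower, and 85 and 77 without wild-type replicate 2. Without wild-type replicate 2 no member was called, and for Hnrnpa1 here the adjusted p over the alternatives ran from 0.0124 to 0.494 and missed the threshold without wild-type replicate 1 or 2 (0.13 and 0.115), heterozygous replicate 2 or 3 (0.141 and 0.171) or null replicate 2 (0.0528), and with 5 other settings (0.0539 to 0.494). Srsf6 was next, with -0.28 (SE 0.07, adjusted p = 0.0683) and values that did not overlap, and it passed after quantile normalization (0.0353) and cyclic loess (0.0359), within a range up to 0.278. The Sm protein genes Snrpf, Snrpb and Snrpd3 had heterozygous values above all wild-type values, at 0.34, 0.25 and 0.19, with adjusted p of 0.291, 0.164 and 0.339.

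Agreement between probe sets differed from gene to gene. At least 2 tested probe sets were available for 34 of the 48 members. All tested probe sets of a gene had the same sign for 14 of these 34 in null against wild type, 11 in heterozygous against wild type and 16 in null against heterozygous. Adjusted over all 27022 probe sets tested, 21 of the 135 tested probe sets of members were called in null against wild type (15.6%, with 11.2% of all probe sets called). There were 2 in heterozygous against wild type, with 1.03% of all called, and 24 in null against heterozygous (17.8%, with 9.12% of all called). Probe sets of a gene share the arrays and are not replicates of each other. From here up to the other genes of the splicing pathway, adjusted p is over probe sets unless stated at the level of genes. Each value over probe sets is a difference within a probe set.

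The small SF3B subunits and Snrpg were lower by several probe sets. For Sf3b5 both tested probe sets were lower in null against wild type (-0.56 and -0.66, adjusted p = 0.00203 and 0.00262), and another was too dim to test. The mean over all probe sets of Sf3b5 did not pass at the level of genes (adjusted p = 0.0685, range 0.000912 to 0.0685). For Sf3b6 the 3 brighter probe sets were lower, at -0.41, -0.61 and -0.62, and the dimmest gave -0.14 (adjusted p = 0.787). Snrpg was lower by both of its probe sets, -0.41 and -0.64 (adjusted p = 0.0101 and 0.0125). Hnrnpa1 was lower by 2 of 3 (-0.65 and -0.56), and the remaining, dim probe set gave 0.11 (adjusted p = 0.792).

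Support from further probe sets varied among rises and among falls. Of the falls against heterozygous cells, those of Snrpb, Snrpd3 and Hnrnpl were called by 1 probe set each. For Srsf3 and Hnrnpa1 0 probe sets were called there, and those of Snrpd3 ran from -0.42 to 0.37. For Hnrnpll the brightest probe set gave 0.46 (adjusted p = 0.0065) and the other 0.14 (adjusted p = 0.251), the same sign without a call. The rise of Sf3b4 came from a probe set with 0.41 (adjusted p = 0.0312), while the other gave -0.003 (adjusted p = 0.995). Srsf6, higher in null than in heterozygous cells, was called by 2 of 4 probe sets (0.34 and 0.38), and the others gave 0.26 (adjusted p = 0.0805) and -0.12 (adjusted p = 0.417). Srsf9, Snrpe, Snrpf and U2af1l4 have only 1 tested probe set, so no such comparison could be made.

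**Figure D3:**
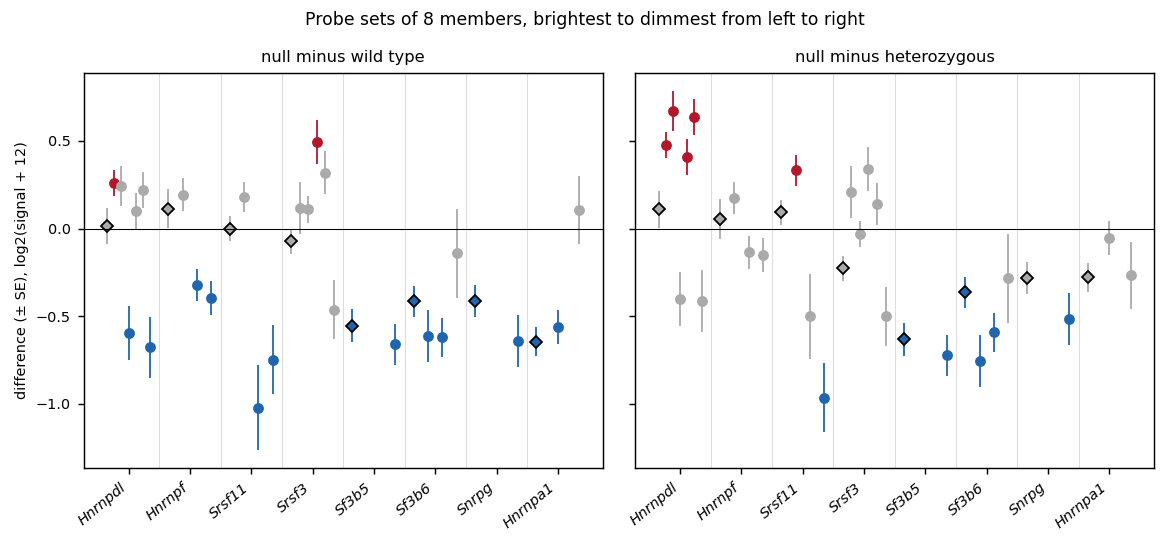
Differences by probe set (limma estimate ± SE, log2(signal + 12)) for 8 members, ordered from the brightest to the dimmest probe set within each gene; diamonds mark the probe set that stands for the gene, and red and blue mark calls adjusted over the 27022 probe sets tested. Probe sets of Hnrnpdl and Srsf11 are called in opposite directions, while those called for Sf3b5, Sf3b6 and Snrpg are all lower.

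In Hnrnpdl, a paralog of Hnrnpd, 7 probe sets were tested and were called in opposite directions in null against wild type. The brightest, which stands for the gene, was flat at 0.02 (adjusted p = 0.944). A probe set with signals of 1369, 1252 and 1307 in wild type and 1489.5, 1592 and 1629 in null cells rose by 0.26 (adjusted p = 0.0388). A further probe set, with 1220.0, 1393 and 1307 in wild type and 1044, 997 and 610.3 in null cells, fell by 0.59 (adjusted p = 0.0232), and another fell by 0.68 (adjusted p = 0.0242). The 2 falling probe sets each share their source sequence in the platform annotation with a probe set that did not fall, which gave 0.02 and 0.22. Against heterozygous cells 4 of the 7 rose, at 0.48, 0.67, 0.41 and 0.64, and the 2 that fell against wild type were again below 0 (-0.40 and -0.41) without a call. Stretches of this gene therefore gave different answers, and the gene as a whole has no settled direction.

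Srsf11, an SR-related protein, was split in null against heterozygous cells. The probe set that stands for it read 1550.1, 1550.2 and 1535 in wild type and 1545, 1603 and 1485 in null cells and was flat at -0.002 (adjusted p = 0.992). A further probe set rose against heterozygous by 0.33 (adjusted p = 0.0291), and a dim probe set fell by 0.96 (adjusted p = 0.00789). That dim probe set read 58.6, 42.3 and 61.8 in wild type, 73.9, 64.8 and 55.3 in heterozygous and 19.4, 40.6 and 24.2 in null cells, and against wild type it fell by 0.75 (adjusted p = 0.0259). Another dim probe set fell by 1.02 (adjusted p = 0.0147), from 87.9, 91.8 and 97 in wild type to 57.5, 49.8 and 19.6 in null cells. With the mean over its probe sets Srsf11 passed at the level of genes, at -0.40 (adjusted p = 0.0317, range 0.0148 to 0.997).

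Other members had probe sets that parted from the brightest. In Hnrnpf, which binds G-rich RNA, the brightest gave 0.11 (adjusted p = 0.579) in null against wild type, but 2 dimmer probe sets fell, at -0.32 and -0.40 (adjusted p = 0.0375 and 0.0184). In Srsf3 a probe set rose by 0.49 (adjusted p = 0.0214) while the brightest gave -0.07 (adjusted p = 0.567). In Srsf10 a probe set that read 298, 308 and 358 in wild type, 395, 526 and 526 in heterozygous and 307, 285 and 332 in null cells was higher in heterozygous than in wild-type cells by 0.56 (adjusted p = 0.0395) and in null against heterozygous cells fell by 0.62 (adjusted p = 0.00604). The brightest probe set of Srsf10 gave 0.09 and -0.15 there and was not called. Of the 4 probe sets of Sf3b1, 1 rose against heterozygous cells by 0.42 (adjusted p = 0.0388). Of the 4 of Srsf2, 1 fell there by 0.47 (adjusted p = 0.0275).

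The other genes of the splicing pathway were read from a list of 145 spliceosome components and splicing regulators outside these prefixes, of which 127 were tested. In null against wild type 21 of them were called, 4 higher and 17 lower, which is 16.5% with a median of -0.08. Set against the 15.7% of all genes the share called was near the background, and 13.4% were lower against 8.09% of all genes and 11.9% of the bright ones. In heterozygous against wild type 2 were called, Pcbp1 and Wtap, both higher, which is 1.57% against 1.39% of all genes and 2.18% of the bright ones. In null against heterozygous 4 were higher and 13 lower, which is 13.4% against 14.3% of all genes and 23% of the bright ones, with a median of -0.07. The shares called in these comparisons were near or below the background.

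Of the 6 Lsm genes tested 3 fell in null against wild type, Lsm4, Lsm6 and Lsm7, and of the 7 Snrnp genes 3 fell, Snrnp25, Snrnp27 and Snrnp70. These groups were picked out after their values were seen, and 8.09% of all genes tested and 11.9% of the bright ones were called lower. Lsm2, Lsm3 and Lsm8 did not pass, at -0.58 (adjusted p = 0.0539), -0.24 (adjusted p = 0.112) and -0.19 (adjusted p = 0.144), nor did Snrnp35, Snrnp40, Snrnp48 and Snrnp200 (adjusted p = 0.526, 0.072, 0.063 and 0.89). Lsm4, a protein of the Lsm ring that binds U6 RNA and also takes part in mRNA decay, read 358, 381 and 333 in wild type, 425, 428 and 317 in heterozygous and 184, 206 and 236 in null cells. Null values lay below all others, at -0.75 (SE 0.12, adjusted p = 0.00117) against wild type. Lsm6, of the same ring, read 619.9, 744 and 627 in wild type, 914, 784 and 621 in heterozygous and 357, 466 and 408 in null cells and fell by 0.68 (SE 0.13, adjusted p = 0.00352). Snrnp25, a protein of the minor spliceosome, read 349, 337 and 265 in wild type, 355, 341 and 302 in heterozygous and 166, 227 and 186 in null cells and fell by 0.69 (SE 0.13, adjusted p = 0.00274). The falls of Lsm4, Lsm6 and Snrnp25 were called in all 22 alternatives. Against heterozygous cells the differences were -0.86, -0.88 and -0.76, also called.

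Of the 6 Clk and Srpk kinases tested, which phosphorylate SR proteins, Clk1 and Clk4 fell in null against wild type. Over all genes tested 8.09% were called lower there, and 11.9% of the bright ones. This group too was picked out with its values in view. Clk2, Clk3, Srpk1 and Srpk2 did not pass, at -0.21, -0.27, 0.20 and -0.05 (adjusted p = 0.252, 0.305, 0.132 and 0.777). Clk1 read 1384, 1508 and 1388 in wild type, 1150.5, 1187 and 1017 in heterozygous and 1033, 993 and 645 in null cells, a difference of -0.70 (SE 0.14, adjusted p = 0.00373) that passed in all 22 alternatives. Its relative Clk4 read 232, 289 and 297 in wild type, 248, 228 and 171 in heterozygous and 205, 180.1 and 138 in null cells and differed by -0.62 (SE 0.16, adjusted p = 0.0155). For Clk4 the adjusted p over the alternatives ran from 0.00985 to 0.0871 and missed the threshold without wild-type replicate 3 (0.062) or null replicate 3 (0.0728), and with a variance prior without an intensity trend (0.0576) or the mean over the gene's probe sets (0.0871). In both kinases the heterozygous means lay between the others, without a call against wild type (-0.35 and -0.33). Null against heterozygous, Clk1 differed by -0.35 (adjusted p = 0.109) and passed with the replicate block (0.0419) and without null replicate 1 (0.0494). Rbm5, which regulates the splicing of apoptosis genes, differed by -0.59 (SE 0.12, adjusted p = 0.00527), and its adjusted p ran from 0.00181 to 0.482 and missed the threshold with the mean over the gene's probe sets (0.162) or the most variable probe set (0.482).

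Of the 4 rises, Rbm15, which recruits the m6A methylation machinery and is known in blood cell development, read 404, 423 and 359 in wild type, 420.3, 412 and 417 in heterozygous and 471, 497 and 695 in null cells and rose by 0.46 (SE 0.12, adjusted p = 0.0227). For Rbm15 the adjusted p over the alternatives ran from 0.0139 to 0.0902 and missed the threshold without wild-type replicate 3 (0.0897) or null replicate 3 (0.0902), and with a variance prior without an intensity trend (0.0765) or a fit on the compared arrays alone (0.0512). Celf1, a regulator of splicing and mRNA decay, read 1927, 2117 and 1809 in wild type, 2033, 1981 and 1966 in heterozygous and 2508, 2537 and 2423 in null cells, a rise of 0.35 (SE 0.07, adjusted p = 0.00444). For Celf1 the adjusted p ran from 0.00248 to 0.739 and missed the threshold with the mean over the gene's probe sets (0.739), and the most variable probe set gave -0.32 (0.474). Wtap, another part of the m6A machinery, was higher in both null and heterozygous cells, 0.33 (adjusted p = 0.016) and 0.38 (adjusted p = 0.0404). In null cells its adjusted p ran from 0.00753 to 0.0922 and missed the threshold without null replicate 1 (0.0641), and with a variance prior without an intensity trend (0.0774) or the mean over the gene's probe sets (0.0922). In heterozygous cells the adjusted p of Wtap ran from 0.0171 to 0.193 and missed the threshold without wild-type replicate 1, 2 or 3 (0.113, 0.0805 and 0.105), heterozygous replicate 1 or 2 (0.135 and 0.136) or null replicate 2 (0.0557), and with 6 other settings (0.0532 to 0.193). Mbnl3 differed by 0.25 (adjusted p = 0.0335), and its adjusted p ran from 0.0232 to 0.653 and missed the threshold without wild-type replicate 1, 2 or 3 (0.0515, 0.104 and 0.0701), heterozygous replicate 2 (0.051) or null replicate 1 or 3 (0.0912 and 0.132), and with 4 other settings (0.0552 to 0.653).

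**Figure D4:**
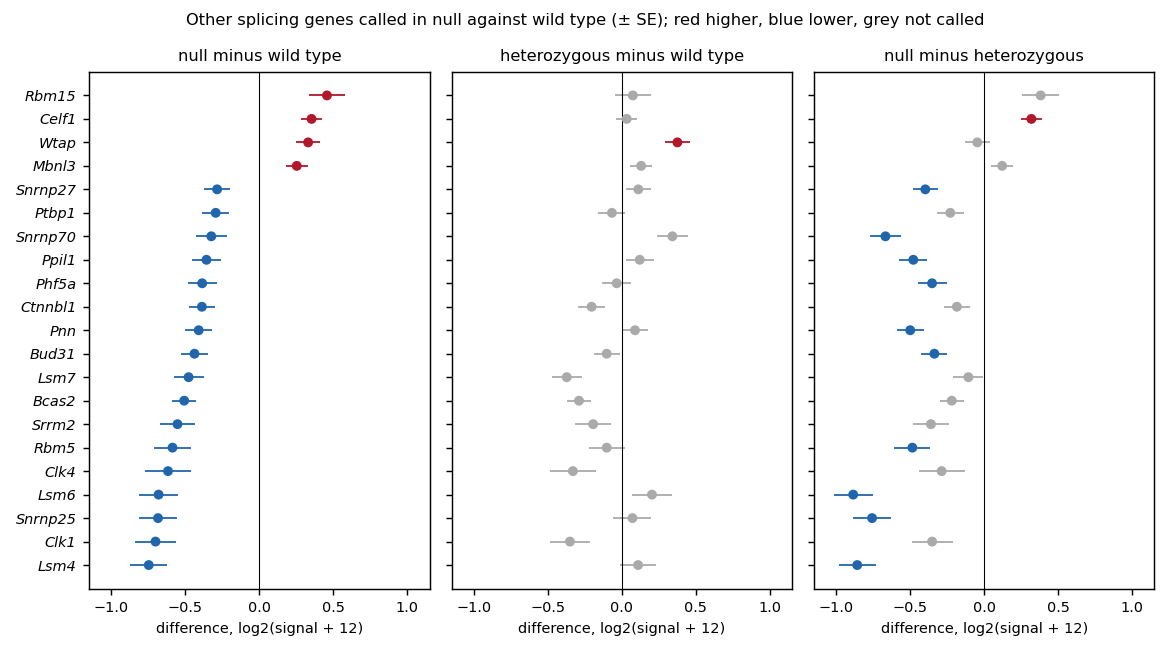
Differences (limma estimate ± SE, log2(signal + 12)) of the 21 other splicing genes called in null against wild type, shown for the 3 comparisons; red and blue mark calls. The 17 lower genes include Lsm4, Lsm6 and Snrnp25, which are also lower against heterozygous cells, and Clk1 and Clk4, which are not called there with the main settings.

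The promoters of genes that were lower in null cells were read for letters that transcription factors of housekeeping genes bind. Sequences are those of RefSeq on GRCm38.p6, from 250 bases before the annotated start to 20 bases after it, which 44 of the 50 members had, with 61 promoters. The following 4 belong to members lower in null against wild type and show how differently such promoters are built. Each is written 5′ to 3′ on the strand of the gene, and capitals mark matches on either strand to CCAAT, the ETS core CCGGAAG, the GC box GGGCGG, the CRE core TGACGT and the NRF1 core TGCGCA, which can overlap. Snrpg lies on the plus strand at chr6:86371290-86371559, Snrpe on the minus strand at chr1:133610261-133610530, Sf3b6 on the plus strand at chr12:4817358-4817627 and Hnrnpa1 on the plus strand at chr15:103240147-103240416.
Snrpg: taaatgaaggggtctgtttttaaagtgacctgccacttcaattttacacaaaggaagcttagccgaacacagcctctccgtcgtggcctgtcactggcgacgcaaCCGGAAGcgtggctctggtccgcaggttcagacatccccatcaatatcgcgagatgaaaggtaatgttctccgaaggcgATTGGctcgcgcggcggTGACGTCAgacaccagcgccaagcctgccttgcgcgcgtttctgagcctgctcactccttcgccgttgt
Snrpe: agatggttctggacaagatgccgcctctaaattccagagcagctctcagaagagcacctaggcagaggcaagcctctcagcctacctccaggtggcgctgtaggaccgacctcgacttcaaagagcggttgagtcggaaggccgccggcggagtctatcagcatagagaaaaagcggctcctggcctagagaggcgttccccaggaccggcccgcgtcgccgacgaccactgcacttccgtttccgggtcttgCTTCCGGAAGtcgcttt
Sf3b6: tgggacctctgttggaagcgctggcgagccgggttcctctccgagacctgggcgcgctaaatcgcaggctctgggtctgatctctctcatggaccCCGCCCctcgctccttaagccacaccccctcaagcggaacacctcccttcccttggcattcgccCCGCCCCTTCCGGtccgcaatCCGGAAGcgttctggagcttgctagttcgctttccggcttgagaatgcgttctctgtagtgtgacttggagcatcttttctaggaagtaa
Hnrnpa1: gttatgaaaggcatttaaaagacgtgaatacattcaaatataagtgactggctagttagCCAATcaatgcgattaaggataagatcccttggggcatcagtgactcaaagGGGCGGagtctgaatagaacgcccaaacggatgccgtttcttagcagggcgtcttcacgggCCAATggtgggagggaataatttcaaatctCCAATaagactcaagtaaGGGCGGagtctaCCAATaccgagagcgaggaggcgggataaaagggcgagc

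Among these, the promoters of Snrpg, Snrpe and Sf3b6 hold the ETS core, and that of Hnrnpa1 does not. GC boxes stand in those of Sf3b6 and Hnrnpa1, and CCAAT in those of Snrpg and Hnrnpa1. The promoters of U2af1l4 and Srsf9, also lower in null against wild type, are not shown and hold no ETS core. Over the 61 member promoters the ETS core was present in 20 (32.8%), against 15.2% of the promoters of all genes tested and 8.08% of all promoters. The GC box was present in 41 (67.2%, against 56.8% and 34.1%), and CCAAT in 29 (47.5%, against 36.1% and 35.4%). The NRF1 core was present in 15 (24.6%, against 11.9% and 7.16%) and the CRE core in 11 (18%, against 10.8% and 7.11%). Of the 7 members lower in null against wild type 6 had a promoter in the table, and 3 of these held the ETS core, 3 the GC box, 2 CCAAT, 2 the NRF1 core and 1 the CRE core. These matches describe the letters only, and the 61 promoters belong to 44 genes.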

How the data were processed

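RNA of 9 GMP samples was read on 1-colour Affymetrix expression arrays. The deposited values are MAS5 signal intensities on a linear scale, made with MAS5 per the submitters' processing notes, whose version and scaling are not given in the sources used here. The 2% trimmed mean was equal on the arrays, and such scaling hides a change common to most transcripts. Median signals ranged from 12.4 to 16.1. Precision is limited by how few arrays there are, and read depth does not apply.

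There were 45101 probe sets, including 64 controls. The platform annotation gave 1 symbol to 34945, several to 932 and none to 9160. Signals were transformed as log2(signal + 12), and differences on that scale understate the change of dim genes. The 12347 genes tested went into limma (version 3.58.1, R 4.3.3; two-sided tests, lmFit, then eBayes with trend) on all 9 arrays in 1 fit, with 6 residual and 8.1 prior degrees of freedom. With 3 arrays a group, exact permutation of 1 value reaches a p of 0.1 at the lowest. The fit was tested on simulated data.

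The members, lists, tests and naming rule were chosen with earlier results of these data known. The rule names members called in any comparison (up to 12 each way), in each role the 3 with the lowest p between null and wild type, the 5 brightest, those with probe sets called in opposite directions, the 6 largest rises and falls among called other splicing genes, and Dicer1. Any other member named was picked with its values in view. The 22 alternatives changed the pseudocount, filter, normalization, variance prior, arrays in the fit, array weights, choice of probe set and replicate block, or left out each array.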

Additional observations from a re-analysis of the deposited data

How the results depend on the processing

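Of 41 called results for single genes, 16 kept their call in all 22 alternatives. Over 902 alternatives of called results 764 kept the call, and 25 of 1408 for results that were not called gained one with the same sign. The count of called members in null against wild type was 9 and became 5 with a variance prior without an intensity trend, and 6 to 11 when an array was left out. In heterozygous against wild type the 1 call became 0 with that prior, with no filter on dim genes, with a fit on the compared arrays alone and with the mean over probe sets, and 2 with quantile or cyclic loess normalization. Leaving out an array gave 0 to 1. In null against heterozygous the 13 became 6 with that prior, 8 with no filter, and 5 to 14 when an array was left out. The cause was not tested. With the most variable probe set of a gene the sign turned in null against wild type for Celf1 (-0.32), Hnrnpdl (-0.68), Hnrnpf (-0.40) and Sf3b4 (-0.0028), and in null against heterozygous for Snrpd3 (0.37). Of these, Hnrnpdl and Hnrnpf, not called with the main settings, were then called lower, at an adjusted p of 0.0238 and 0.02. Whether the replicate numbers pair the arrays was not settled. Deviations correlated at -0.03 to 0.14 for the same number and -0.15 to 0.09 for different numbers. Of the 9 arrays 6 correlated best with their own number. With the replicate number as a block (replicate block) 10, 1 and 16 members were called in the 3 comparisons. Over all genes that block gave 1016 higher and 1095 lower, 97 and 104, and 927 and 1007 in the same order. What limits the values is the 3 arrays per group and the signal of dim probe sets, since detection calls were not used here.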
